A study of Mus musculus with 4 samples.

Results

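The 45 genes described here encode lysosomal enzymes, their activator proteins, lysosomal membrane proteins and subunits of the proton pump of the lysosome. They were chosen by symbol from the 32285 genes of the count matrices, leaving out the cathepsin proteases. No cut-off on a measured value was used, but the list was drawn up with earlier results of these data known. All 45 were found, and all 45 passed the filter on low counts in the sums over microglia. By role the list held 18 soluble hydrolases, 3 activators and progranulin, 8 membrane proteins, 6 subunits of the membrane-embedded V0 sector of the vacuolar proton pump (V-ATPase), 8 subunits of its cytoplasmic V1 sector and 2 accessory subunits.

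Single-cell RNA of CD11b+ CD45+ cells sorted from the brain was counted in 4 libraries, each from 1 C57BL/6 mouse: 2 PRMT1FL mice, which the labels call wild type, and 2 PRMT1Cx3cr1-KO mice, in which floxed Prmt1 alleles were combined with the tamoxifen-inducible recombinase Cx3cr1-CreERT. PRMT1 is an arginine methyltransferase that methylates histone H4 and other proteins. Per the methods of the study, mice of both genotypes received tamoxifen and then a 0.2% cuprizone (CPZ) diet for 5 weeks. Cuprizone chelates copper and strips axons of myelin, and the labels give 5 to 6 weeks as the age when the diet began, whereas the methods of the study give that age for the tamoxifen, which came before the diet. The driver is expressed in microglia and in other macrophages and is a knock-in at Cx3cr1, and whether the PRMT1FL mice carried it is not stated in the sources used here. The labels call the sorted cells quiescent microglia. Of 11427, 8170, 10370 and 10902 cells kept, 10987, 7812, 10194 and 10623 lay in clusters with microglial markers, and genes of cell division were among the leading genes of 3 of these clusters (Mki67 and Top2a in 741 cells, Ube2c and Pbk in 7772 and Ccnb2 in 7247). The cluster of 7772 cells also had the red-cell haemoglobin gene Hbb-bs among its leading genes.

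Unique molecular identifiers (UMIs) mark single captured RNA molecules, and they were summed per mouse because cells of 1 mouse are not replicates. The microglia of a mouse held 72868169 to 93026917 UMIs, so that each member rested on 108 or more UMIs in every mouse. Prmt1 itself was at 93.2 and 86.2 counts per 1000000 UMIs (CPM, scaled between mice by TMM factors) in the PRMT1FL mice and at 69.7 and 67.6 CPM in the PRMT1Cx3cr1-KO mice. Its log2 fold change was −0.39 ± 0.07 (SE) with an edgeR adjusted p of 0.0742. The reads come from the 3′ end of transcripts, and whether that end lies in the deleted part is not stated in the sources used here, so this is no full check of the deletion. Hbb-bs, a haemoglobin gene of red blood cells, was at 136 and 53.5 unscaled CPM in the PRMT1FL mice and at 0.0613 and 0 CPM in the PRMT1Cx3cr1-KO mice. Red-cell RNA thus moved with genotype, and its part in the results was not tested.

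Lysosomes break down proteins, lipids, glycans and nucleic acids at acid pH. Soluble hydrolases reach them mostly by the mannose 6-phosphate route, the V-ATPase pumps protons across the membrane by hydrolysing ATP in its V1 sector, and glycosylated membrane proteins line the inner face of that membrane. Microglia take up myelin debris when myelin is lost, and its lipids are degraded in this compartment. Many lysosomal genes carry the E-box CACGTG, often extended to TCACGTGA, near their start sites, to which the MiT factors TFEB, TFE3, MITF and TFEC can bind (the CLEAR network).

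Promoters are shown for 5 members that carry this motif and that the genotype comparisons below turn on or that are among the most abundant. They come from RefSeq windows of 300 bases around each start site (GRCm38.p6, from 250 bases before to 50 bases after the start), read 5′ to 3′ on the gene's strand. Capitals mark CACGTG with the flanking T or A that extends it.

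Gla, first site, chrX:134601214-134601243, minus strand: aagcgattgaTCACGTGAgcatctacgtca
Gla, second site, chrX:134601181-134601210, minus strand: gagatctcggTCACGTGAgcaactctcggc
Atp6v1a, chr16:44139372-44139401, minus strand: tttttttaaaTCACGTGAtaggcttaacgt
Lamp1, chr8:13159086-13159160, plus strand: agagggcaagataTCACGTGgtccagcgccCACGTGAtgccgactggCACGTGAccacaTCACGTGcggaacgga
Glb1, chr9:114401019-114401048, plus strand: tgcttctgagTCACGTGgcctacagaggct
Gaa, chr11:119267812-119267841, plus strand: ttctgtgcgaTCACGTGtttgactctgact

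Gla thus holds 2 palindromic sites within 75 bases, Atp6v1a 1 palindromic site, and Lamp1 4 sites with a flanking base on 1 side only, all within the 75 bases before its start. The Glb1 and Gaa sites are likewise extended on 1 side. Both Gla windows lie in an exon of the neighbouring gene Hnrnph2, the Atp6v1a window lies within the annotated Atp6v1a gene but in no exon, and the Lamp1, Glb1 and Gaa windows lie in no annotated gene.

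RefSeq promoters were matched for 37 of the 45 members, with 41 windows. CACGTG, which reads the same on both strands, stood in 12 of the 41 windows (29.3%), against 2349 of all 32851 promoter windows (7.15%). The palindrome TCACGTGA, which contains CACGTG, stood in 5 windows (12.2%), those of Atp6v0d1, Atp6v0e, Atp6v1a, Gla and Mcoln1, against 320 of all windows (0.974%). The longer CLEAR consensus, in which a G precedes and a C follows this palindrome, was in 0 member windows and in 107 of all windows (0.326%). In each of the 12 members with CACGTG the core had a flanking T or A on at least 1 side; TCACGTG on either strand, a motif added after the windows were seen, was in 3.77% of all windows. The other members with the core were Atp6v0b, Lgmn, Naglu and Sgsh. A match describes letters in these windows and not binding, and Galns, Asah1, Npc1, Atp6v0d2, Atp6v1b2, Atp6v1c1, Atp6v1g1 and Atp6v1h were not matched.

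The members took 1.98% and 1.99% of microglial UMIs in the PRMT1FL mice and 1.89% and 1.90% in the PRMT1Cx3cr1-KO mice. Both PRMT1Cx3cr1-KO mice lay below both PRMT1FL mice, with a log2 ratio of −0.07 (two-sided exact permutation test, p = 0.333, the smallest that 2 mice against 2 allow). Activators and progranulin took 0.509% and 0.494% of UMIs in the PRMT1FL mice and 0.452% and 0.408% in the PRMT1Cx3cr1-KO mice. Membrane proteins took 0.507% and 0.520% against 0.466% and 0.488%, again without overlap. The hydrolases (0.577% and 0.574% against 0.572% and 0.587%), the V0 sector (0.235% and 0.243% against 0.238% and 0.250%) and the V1 sector (0.123% and 0.128% against 0.126% and 0.132%) overlapped between genotypes.

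A few members held most of these UMIs. The mean unscaled CPM over the 4 mice was 2219 for Psap, the precursor of the saposins that help hydrolases reach sphingolipids, and 2207 for Grn, which encodes progranulin. Lgmn, an asparaginyl endopeptidase, was at 2010.2, and the membrane protein Laptm5 at 1608. Atp6v0c, which forms the proton-carrying ring of the V-ATPase, was at 1332, Lamp1, an abundant glycoprotein of the lysosomal membrane, at 1226, Hexa, the alpha subunit of beta-hexosaminidase, at 1140.5, and Cd68, a macrophage lysosomal glycoprotein, at 1116. These 8 genes held 66.2% of the list's UMIs. Psap, Grn and Lgmn overlapped in their ranges over mice, as did Atp6v0c, Lamp1, Hexa and Cd68, each with the next in order, whereas Lgmn lay above Laptm5, Laptm5 above Atp6v0c and Cd68 above Atp6v0b in every mouse. Counts of 3′ ends do not scale with transcript length, but capture differs between genes, so the order is one of counted UMIs.

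The lower end held hydrolases and channels. Galns was at 39.4 CPM, Gla at 33.0, Atp6v1h at 31.5, Smpd1, the acid sphingomyelinase, at 28.2, Manba at 20.7 and the cation channel gene Mcoln1 at 17.7. Atp6v0d2, a variant of the V0 d subunit, was at 3.08 CPM, against 131 CPM for its partner form Atp6v0d1. Sgsh, the heparan sulfamidase, was lowest at 1.55 CPM, with 108 to 185 UMIs a mouse.

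The first comparison asked how the genotypes differed over all microglia. The PRMT1Cx3cr1-KO mice were lower for most members, but by small amounts. Atp6v0d2 was at 4.24 and 4.16 CPM in the PRMT1FL mice and at 2.01 and 2.03 CPM in the PRMT1Cx3cr1-KO mice, from 364, 295, 165 and 197 UMIs. It fell by 1.06 ± 0.12 (SE) on the log2 scale with an edgeR adjusted p of 0.0324, and was the 1 member of 45 that passed 0.05 over all genes tested. Of all 13847 genes tested 93 passed (0.672%), 69 higher (0.498%) and 24 lower (0.173%). With edgeR it no longer passed when either PRMT1FL mouse was left out (adjusted p of 0.39995 without mouse 1 and 0.497 without mouse 2) or when every cell was thinned to 1000 UMIs (0.159).

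At an unadjusted p under 0.05 there were 17 of 45 members (37.8%), all lower in the PRMT1Cx3cr1-KO mice, and 2742 of all genes (19.8%). The share of members exceeded that of all genes by less when any single mouse was left out, and by least without PRMT1FL mouse 2. The median log2 fold change of the members was −0.12, beside −0.0043 over all genes tested, with 36 members lower and 9 higher. Both PRMT1Cx3cr1-KO mice lay below both PRMT1FL mice in 26 members (57.8%, beside 27.7% of all genes) and above them in 4 (8.89%, beside 26.2%). With library totals in place of TMM factors the median of all genes was 0.07 and that of the members −0.04, with 25 members lower and 20 higher. At an unadjusted p under 0.05 there were then 12 members (26.7%, beside 21.9% of genes). Over all cells within the limits there were 13 (28.9%, beside 24.1%). Without PRMT1FL mouse 2, 29 members were lower and 16 higher.

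Among the hydrolases 14 of 18 were lower, 8 at an unadjusted p under 0.05 and 0 after adjustment, with a median of −0.14. Glb1, the beta-galactosidase that acts on gangliosides and keratan sulfate, was at 94.6 and 94.1 CPM in the PRMT1FL mice and at 68.8 and 59.8 CPM in the PRMT1Cx3cr1-KO mice (log2 fold change −0.55 ± 0.08, edgeR adjusted p = 0.0530). Its 2 groups were far apart, but it shares exon sequence with Tmppe on the same strand, so some UMIs may belong to either gene. Gaa, the acid alpha-glucosidase that degrades glycogen, was at 98.9 and 94.1 CPM against 75.3 and 68.9 (−0.42 ± 0.07, adjusted p = 0.0732). Manba, a beta-mannosidase, was at 22.4 and 23.4 CPM against 18.2 and 19.1 (−0.30 ± 0.07, adjusted p = 0.0957). These 3 enzymes had groups that did not overlap, which is no further support for genes picked by smallest p. Tpp1, a tripeptidyl peptidase, was at 282 and 299 CPM against 251 and 237 (−0.25, adjusted p = 0.134), Hexa at 1235 and 1227 CPM against 1070.5 and 1039 (−0.22, adjusted p = 0.163), and Naglu, which acts on heparan sulfate, at 160.1 and 154 CPM against 140.5 and 131 (−0.21, adjusted p = 0.172). Lgmn went the other way, at 1918 and 1924 CPM against 2085 and 2103 (0.12, adjusted p = 0.392). The highest log2 fold change of any member was 0.21, for Sgsh (adjusted p = 0.644).

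All 3 activators and progranulin were lower at an unadjusted p under 0.05, with none past the adjusted threshold and a median of −0.34. Gm2a, the activator that lifts GM2 ganglioside out of membranes for its degradation, was at 258 and 274 CPM in the PRMT1FL mice and at 217 and 174 CPM in the PRMT1Cx3cr1-KO mice (−0.45 ± 0.11, adjusted p = 0.111). Psap was at 2572 and 2401 CPM against 2130.4 and 1804 (−0.34 ± 0.10, adjusted p = 0.157). Grn was at 2392 and 2397 CPM against 2135 and 1925 (−0.24, adjusted p = 0.202). In each of the 3 genes PRMT1Cx3cr1-KO mouse 2 was the lowest of the 4 mice.

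All 8 membrane proteins had a negative log2 fold change (5 of 8 with library totals, where Scarb2, Laptm4a and Npc1 turned), 3 at an unadjusted p under 0.05, with a median of −0.14. Lamp1 was at 1355 and 1322 CPM in the PRMT1FL mice and at 1152 and 1086 CPM in the PRMT1Cx3cr1-KO mice (−0.26 ± 0.07, adjusted p = 0.143). Laptm5, which is expressed in blood-lineage cells, was at 1702 and 1749 CPM against 1485 and 1506 (−0.21, adjusted p = 0.197). The groups of both genes did not overlap, beside 27.7% of all genes with both PRMT1Cx3cr1-KO mice below both PRMT1FL mice. Npc1, a cholesterol exporter, was nearest to 0 (−0.02).

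The 16 V-ATPase members had a median of −0.05, with 11 lower and 5 higher, beside −0.15 for the other 29 members. Apart from Atp6v0d2, Atp6v1b2, a nucleotide-binding V1 subunit, was at 97.4 and 95.9 CPM in the PRMT1FL mice and at 84.4 and 82.7 CPM in the PRMT1Cx3cr1-KO mice (−0.21 ± 0.06, adjusted p = 0.139). The accessory subunit Atp6ap1 was at 205 and 217 CPM against 186 and 178 (−0.22 ± 0.07, adjusted p = 0.160), and the other accessory subunit, Atp6ap2, at 137 and 136 CPM against 147 and 149 (0.11, adjusted p = 0.343). The most abundant subunits were level: Atp6v0c was at 1354 and 1360 CPM against 1322 and 1294 (−0.05, adjusted p = 0.721), and Atp6v1g1, a stalk subunit, at 377 and 381 CPM against 381 and 379 (0.01, adjusted p = 0.973). Atp6v0b was at 573 and 615 CPM against 564 and 588 (−0.05, adjusted p = 0.777), and Atp6v1f at 320.02 and 357 CPM against 321 and 325 (−0.07, adjusted p = 0.666), both with overlapping mice. The signs of Atp6v0b, Atp6v0c and Atp6v1f turned with library totals.

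**Figure D1:**
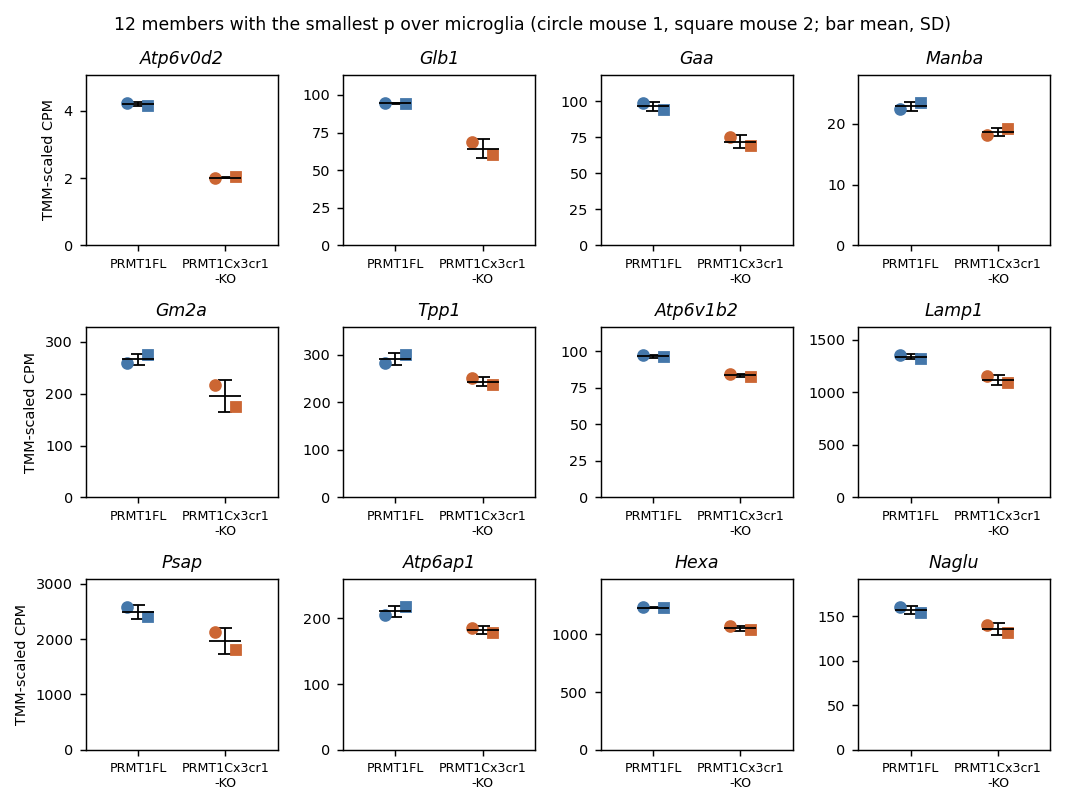
TMM-scaled CPM (linear axes from 0) over microglia for the 12 members with the smallest p, with a circle for mouse 1 and a square for mouse 2 of each genotype, and bars for the mean and SD of 2 mice. In each of the 12 panels both PRMT1Cx3cr1-KO mice lie below both PRMT1FL mice, with the widest gap relative to level in Atp6v0d2 (4.24 and 4.16 against 2.01 and 2.03 CPM). The panels were picked by smallest p, so this separation is no further support. Of all genes tested 27.7% lay in this order.

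Other lysosomal genes were read from the same fit. Of 89 listed genes 82 were tested. Past the adjusted threshold 1 rose (beside 0.498% of all genes) and 0 fell (beside 0.173%). An unadjusted p under 0.05 was found for 30 (36.6%, beside 19.8% of all genes). The median was −0.09, with 57 lower and 25 higher, beside 7075 lower and 6772 higher of all genes. The gene that rose was Tfec, a MiT factor of macrophages, at 0.198 and 0.0986 CPM in the PRMT1FL mice and at 1.41 and 2.67 CPM in the PRMT1Cx3cr1-KO mice, from 17, 7, 116 and 260 UMIs (3.74 ± 0.46, adjusted p = 0.0391). The other MiT factors were level or lower: Mitf had a log2 fold change of −0.22 (adjusted p = 0.240) and Tfeb of −0.12 (0.454). Cathepsins had a median of −0.26 over 10 tested genes, 9 of them lower, with Ctsl at −0.52 (0.0848), Ctsf at −0.47 (0.0798) and Ctsa at −0.30 (0.134). Other enzymes had a median of −0.15, with 20 of 27 lower, and by smallest p they included the mannosidase gene Man2b2 (−0.54, adjusted p = 0.0502) and Idua (−0.39, 0.101). Other membrane proteins had a median of −0.11, with 17 of 20 lower, and by smallest p they included the cystine exporter gene Ctns (−0.32, 0.0883), Cd63 (−0.27, 0.146) and Cln3 (−0.22, 0.155). The 4 further V-ATPase subunits that were tested were all higher, with a median of 0.15: Atp6v1g2 (0.45, 0.127), Atp6v0a2 (0.10, 0.572), Atp6v0e2 (0.20, 0.632) and Tcirg1. The mTORC1 platform was near 0 (median 0.02), with Rragd at −0.52 (0.0957), Fnip2 at −0.18 (0.180) and Flcn at −0.16 (0.218), and so was enzyme sorting (0.0061), with Gnptg at −0.15 (0.279), Gnptab at 0.13 (0.308) and Igf2r at 0.52 (0.324). The values in parentheses are the log2 fold change, where not already given, and the edgeR adjusted p.

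Microglia fell into 8 clusters, here called states and made without the members and the other lysosomal genes. Also left out were 1873 genes that passed limits on p and fold change between genotypes in sums over all cells kept. Genes that differed by less, or only within a state, were not left out. A D/E-like state (6622 cells) was named after marker sets of the study, with Gdf15, Il7r and Crybb1 among its leading genes. These leading genes are not among the D and E markers that the study names in its text. D and E are separate clusters in the study, which reported a loss of D and a gain of E in PRMT1Cx3cr1-KO microglia. Here they were not told apart. An A1-like state (741 cells) was led by Hist1h2ap, Top2a and Mki67, an interferon-responsive-like state (784 cells) expressed Rsad2 and Ifit3, and a B1-like state (518 cells) expressed Ms4a7, Clec12a and Cd38. The B1-like cells came from a cluster chosen by hand for further splitting. Its other parts, among them border-macrophage-like and neutrophil-like cells, were not counted as microglia. The other 4 clusters are called by a leading gene: Lag3, Ptgs2, Cd5l and Ube2c. Members took the highest mean share of UMIs in the Cd5l cluster (2.05%) and the lowest in the B1-like (1.72%) and A1-like (1.75%) states. Outside microglia the share was 1.73% in border-macrophage-like cells, 0.84% in neutrophil-like cells, which were found in 3 mice, and 0.909% in other brain cells.

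**Figure D2:**
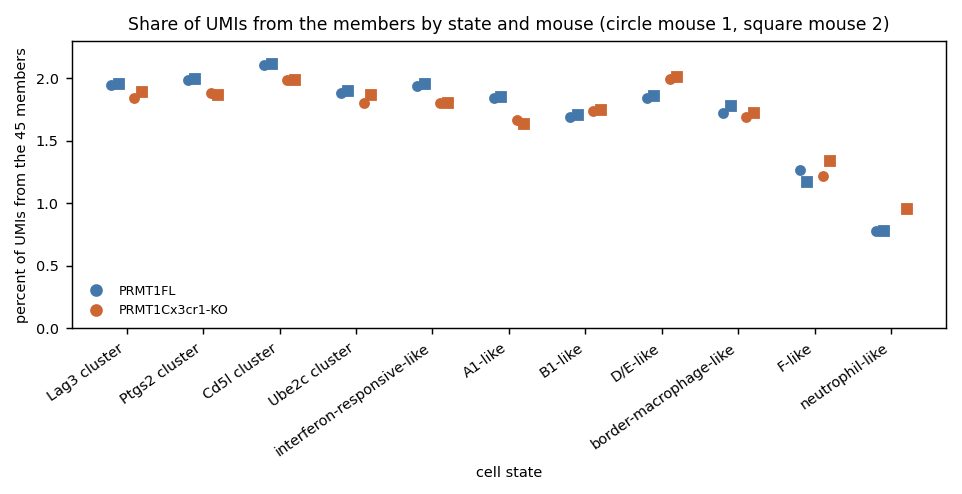
Percent of UMIs taken by the 45 members in each cell state, with a circle for mouse 1 and a square for mouse 2 of each genotype. Microglial states lie between 1.63% and 2.12%, and neutrophil-like cells lie lowest. Both PRMT1Cx3cr1-KO mice are below both PRMT1FL mice in 6 of 8 microglial states and above them in D/E-like and B1-like cells.

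Members differed in where they were highest, which is a description because the states are clusters of the same cells. By mean unscaled CPM over mice, 12 members were highest and 15 lowest in D/E-like cells, 11 were highest and 0 lowest in the Cd5l cluster, and 8 were highest and 14 lowest in the Ube2c cluster. Pla2g15, a lysosomal phospholipase A2, was at 294 CPM in D/E-like cells and at 77.8 CPM in the Ube2c cluster (a ratio of 3.78). Npc1 was at 114 CPM against 35.6 (3.21) and Mcoln1 at 23.4 CPM against 9.77 (2.40) in the same pair of states. Atp6v1f ran the other way, at 471.5 CPM in the Ube2c cluster and at 209.9 in D/E-like cells (2.25). Galns, which acts on keratan sulfate, was at 58.6 CPM in A1-like cells and at 13.1 CPM in D/E-like cells (4.46). Atp6v0d2 was at 5.32 CPM in the Ube2c cluster and at 0.827 in A1-like cells (6.43), from 192 and 8 UMIs.

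The ratio was largest for Sgsh, at 15.3 CPM in B1-like cells and at 0.780 CPM in A1-like cells (19.6), but from 50 and 10 UMIs in all, and it was at 0 CPM in the B1-like cells of PRMT1FL mouse 1. Manba was at 27.0 CPM in B1-like cells and at 12.01 CPM in the Ube2c cluster (2.24). The B1-like state held 30 and 10 cells in the PRMT1FL mice and 70 and 408 in the PRMT1Cx3cr1-KO mice, too few for a test between genotypes. Ppt1, a thioesterase that removes palmitate from proteins, had the smallest ratio (1.203).

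**Figure D3:**
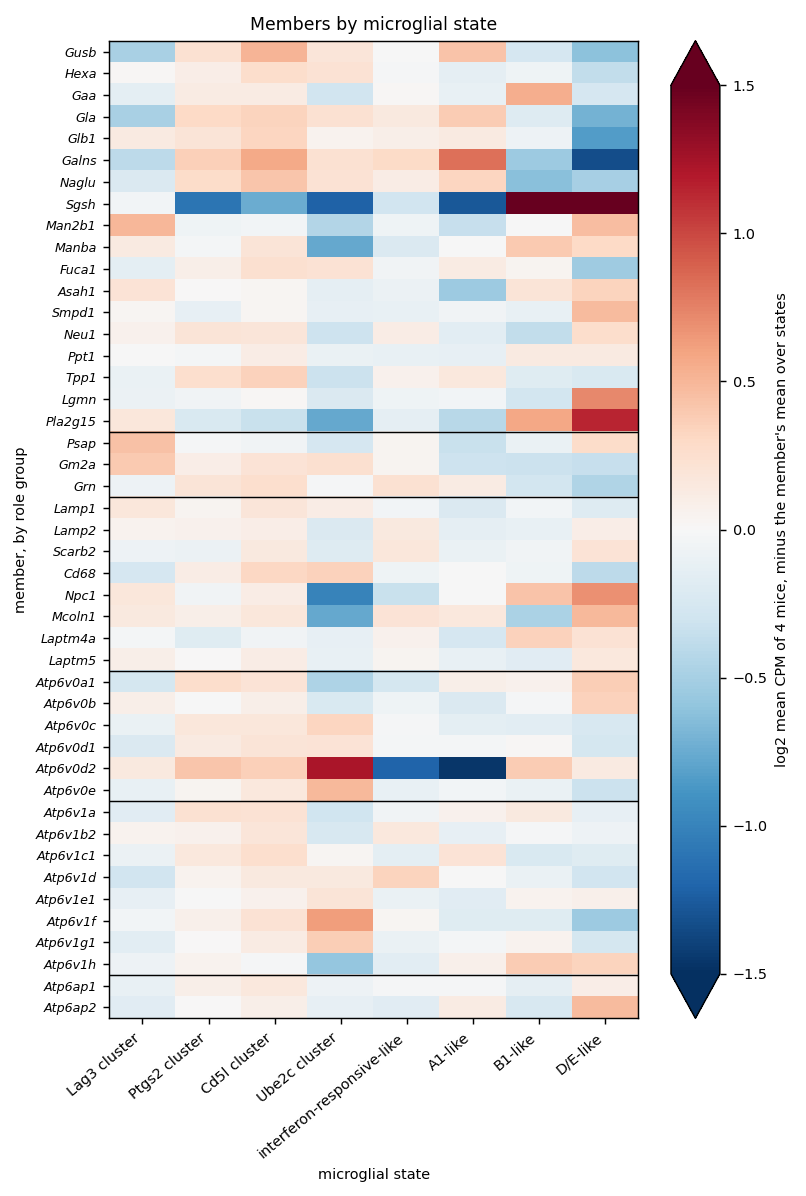
Heat map of each member (in order of role) in each of the 8 microglial states, coloured by log2 of the mean unscaled CPM of 4 mice minus that member's mean over states, with the strongest colours also standing for values past the ends of the scale. Pla2g15, Npc1 and Lgmn are high in D/E-like cells, Galns, Glb1 and Gla are low there, and Sgsh is high in B1-like and D/E-like cells.

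The next comparison asked whether genotypes differed within a state. D/E-like cells stood apart: most members there were higher in the PRMT1Cx3cr1-KO mice, the opposite of the sums over all microglia. They numbered 1426 and 1179 in the PRMT1FL mice (12.98% and 15.1% of microglia) and 1886 and 2131 in the PRMT1Cx3cr1-KO mice (18.5% and 20.1%). Members took 1.84% and 1.86% of their UMIs in the PRMT1FL mice and 1.998% and 2.01% in the PRMT1Cx3cr1-KO mice. Within these cells 23 of 45 members passed an adjusted p of 0.05, beside 2673 of 11138 genes (24%). Of the members 17 rose, beside 12.5% of all genes, and 6 fell, beside 11.5%. The median log2 fold change of the members was 0.23, beside −0.003 over all genes. Values of the members in the paragraphs that follow are given because they passed a test in these cells, and these were chosen after their values were seen. For genes picked by such a test, groups that do not overlap are no further support. The share of all genes with such groups in these cells was not counted.

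D/E-like cells of the genotypes differed in much else, which bears on every value in them. Their summed D markers (Tmem119, Selplg, Siglech and Sox4) were at 4964 and 5062 CPM in the PRMT1FL mice and at 2652 and 2178 CPM in the PRMT1Cx3cr1-KO mice, and 4 of 4 fell. The summed Gdf15, Il7r and Pdlim4 were at 158 and 178 CPM against 678 and 734, and 3 of 3 rose. Summed E markers were at 3847 and 3835 CPM against 6008 and 5363 (2 of 4 rose), B1 markers, among them Apoe and Spp1, at 9800.2 and 8163 CPM against 23094 and 27316 (3 of 4 rose), and B2 markers, which include cathepsins, at 13708 and 13441 CPM against 20293 and 23173 (5 of 6 rose). Of 9 microglial markers 5 fell and 1 rose. Border-macrophage markers were at 4.99 and 10.01 CPM against 16.2 and 34.2 (2 of 6 rose), and neutrophil markers at 196 and 205 CPM against 179 and 166 (0 of 6 passed the test). Astrocyte markers were at 154 and 162 CPM against 109 and 88.9 (2 of 6 fell), oligodendrocyte markers at 106.5 and 107 CPM against 78.9 and 68.4 (3 of 5 fell), and erythroid markers at 99.6 and 0.218 CPM against 0.130 and 0. The part of these markers in the values of the members was not tested. A different mix of cells within the state and a change within its cells cannot be told apart here, as fewer cells of a type and less RNA per cell cannot in any sum over cells.

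D/E-like cells had median UMIs of 2918.5 and 3372 a cell in the PRMT1FL mice and 3139.5 and 3689 in the PRMT1Cx3cr1-KO mice, below the 3 larger named clusters (4349.5 to 11136). Marked doublets made up 1.68% and 1.19% against 2.81% and 3.8%. Most cells of the state lay in a pair of finer clusters. The shallower held 42.3% and 49.9% of its cells in the PRMT1FL mice and 36.2% and 46.2% in the PRMT1Cx3cr1-KO mice. The deeper held 56.7% and 48.7% against 57.1% and 45.2%. Cells of the state made up 87.9% to 94.5% of a finer cluster in each mouse, so both also held other cells. In the shallower cluster 11 of 44 members passed (9 higher and 2 lower). Beside them 12% of its genes were called in either direction. In the deeper cluster 18 of 44 members passed (12 higher and 6 lower), beside 18.4% of its genes in either direction.

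Among the hydrolases in D/E-like cells 6 rose and 4 fell, out of 18. Gla, the alpha-galactosidase that acts on globotriaosylceramide, was at 7.73 and 9.85 CPM in the PRMT1FL mice and at 26.0 and 28.8 CPM in the PRMT1Cx3cr1-KO mice, from 38, 46, 195 and 294 UMIs. It rose by 1.65 ± 0.17 on the log2 scale (edgeR adjusted p = 4.84e-05), whereas over all microglia its log2 fold change was −0.04. Among the other members with TCACGTGA, Atp6v1a rose, and Atp6v0d1, Atp6v0e and Mcoln1 did not pass (edgeR adjusted p = 0.0921, 0.247 and 0.797). Among those with CACGTG but without that palindrome, Gaa and Lgmn rose, Glb1 and Sgsh fell, and the others did not pass. The part of the motif in these changes was not tested. Gaa was at 59.4 and 55.7 CPM against 78.6 and 85.0 (0.51 ± 0.10, adjusted p = 0.00302), in the opposite direction to all microglia. Ppt1 was at 209.6 and 218 CPM against 293 and 307 (0.49 ± 0.09, adjusted p = 0.00202). Groups of these 3 genes did not overlap. Gusb, a beta-glucuronidase, Neu1, a sialidase, and Lgmn rose by 0.46, 0.43 and 0.29.

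The hydrolases that fell in D/E-like cells were Sgsh, Glb1, Man2b1 and Fuca1. Sgsh was at 8.55 and 8.13 CPM in the PRMT1FL mice and at 3.74 and 3.04 CPM in the PRMT1Cx3cr1-KO mice, from 42, 38, 28 and 31 UMIs, and fell by 1.31 ± 0.26 on the log2 scale (adjusted p = 0.00405). Glb1 was at 51.5 and 56.1 CPM against 29.0 and 24.0 and fell by 1.03 ± 0.12 (adjusted p = 0.000112). Man2b1, an alpha-mannosidase, fell by 0.39 and Fuca1, a fucosidase, by 0.31. Glb1 was thus lower in PRMT1Cx3cr1-KO mice both here and over all microglia, whereas Gaa was lower over all microglia and higher here.

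Of the activators and progranulin, Gm2a fell in D/E-like cells, from 183 and 188 CPM to 149 and 143 (−0.35 ± 0.09, adjusted p = 0.0134). Psap was at 2519 and 2352 CPM in the PRMT1FL mice and at 2921 and 2734 CPM in the PRMT1Cx3cr1-KO mice (0.22 ± 0.09, adjusted p = 0.111). Grn was at 1389.9 and 1359 CPM against 1621 and 1640.0 (0.25 ± 0.09, adjusted p = 0.0580). Both PRMT1Cx3cr1-KO mice were above both PRMT1FL mice in these 2 genes, without passing the threshold. The share of all genes in this order in these cells was not counted. In D/E-like cells of the PRMT1FL mice Psap was the gene next to Lgmn in level, and Lgmn was the most abundant member in all 4 mice.

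Among the membrane proteins Cd68 and Scarb2 rose and Laptm5 fell in D/E-like cells. Cd68 was at 601 and 721 CPM in the PRMT1FL mice and at 848 and 981 CPM in the PRMT1Cx3cr1-KO mice (0.47 ± 0.11, adjusted p = 0.00926). Scarb2, the receptor that carries glucocerebrosidase to the lysosome, was at 158 and 149 CPM against 194 and 203 (0.37 ± 0.09, adjusted p = 0.0101). Laptm5 was at 1944 and 1989 CPM against 1540.2 and 1542 (−0.35 ± 0.09, adjusted p = 0.0120). In all 3 the groups did not overlap. Lamp1 was at 952 and 939.8 CPM against 1105 and 1096 (0.22, adjusted p = 0.0868), and Lamp2 at 437 and 451 CPM against 533 and 523 (0.25, adjusted p = 0.0529).

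All 16 V-ATPase members had a positive log2 fold change in D/E-like cells (Atp6v1h and Atp6v0b turned with library totals), and 9 of them rose. Atp6v1a, the catalytic V1 subunit, was at 53.3 and 57.6 CPM in the PRMT1FL mice and at 100.4 and 103.5 CPM in the PRMT1Cx3cr1-KO mice, and rose by 0.88 ± 0.10 (adjusted p = 5.9e-05). Atp6v1g1 was at 238 and 264 CPM against 366 and 368 (0.55 ± 0.09, adjusted p = 0.00127). The ring subunit Atp6v0c was at 882 and 876 CPM against 1281 and 1151 (0.47 ± 0.09, adjusted p = 0.00337). The accessory subunit Atp6ap2 was at 159 and 151 CPM against 232 and 231 (0.58 ± 0.09, adjusted p = 0.00065). In each of these 4 subunits, from 3 structural groups, the mice of the genotypes were apart. Atp6v0a1, Atp6v1e1, Atp6v1b2 and Atp6v1c1 rose by 0.44, 0.43, 0.42 and 0.30.

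Atp6v0d2 rose as well in D/E-like cells, from 0.407 and 1.71 CPM to 2.94 and 5.09 CPM (1.96 ± 0.53, adjusted p = 0.0200), but from 2, 8, 22 and 52 UMIs. Leaving out PRMT1FL mouse 1 gave an adjusted p of 0.213, and leaving out PRMT1Cx3cr1-KO mouse 2 gave 0.0988. The other V-ATPase members in D/E-like cells did not pass: their log2 fold changes ran from 0.01 (Atp6v1h) to 0.24 (Atp6v1f). Its log2 fold change was thus of opposite sign in this state and over all microglia. Without PRMT1FL mouse 1 it was 1.26 in D/E-like cells, and that mouse held 2 of the UMIs.

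**Figure D4:**
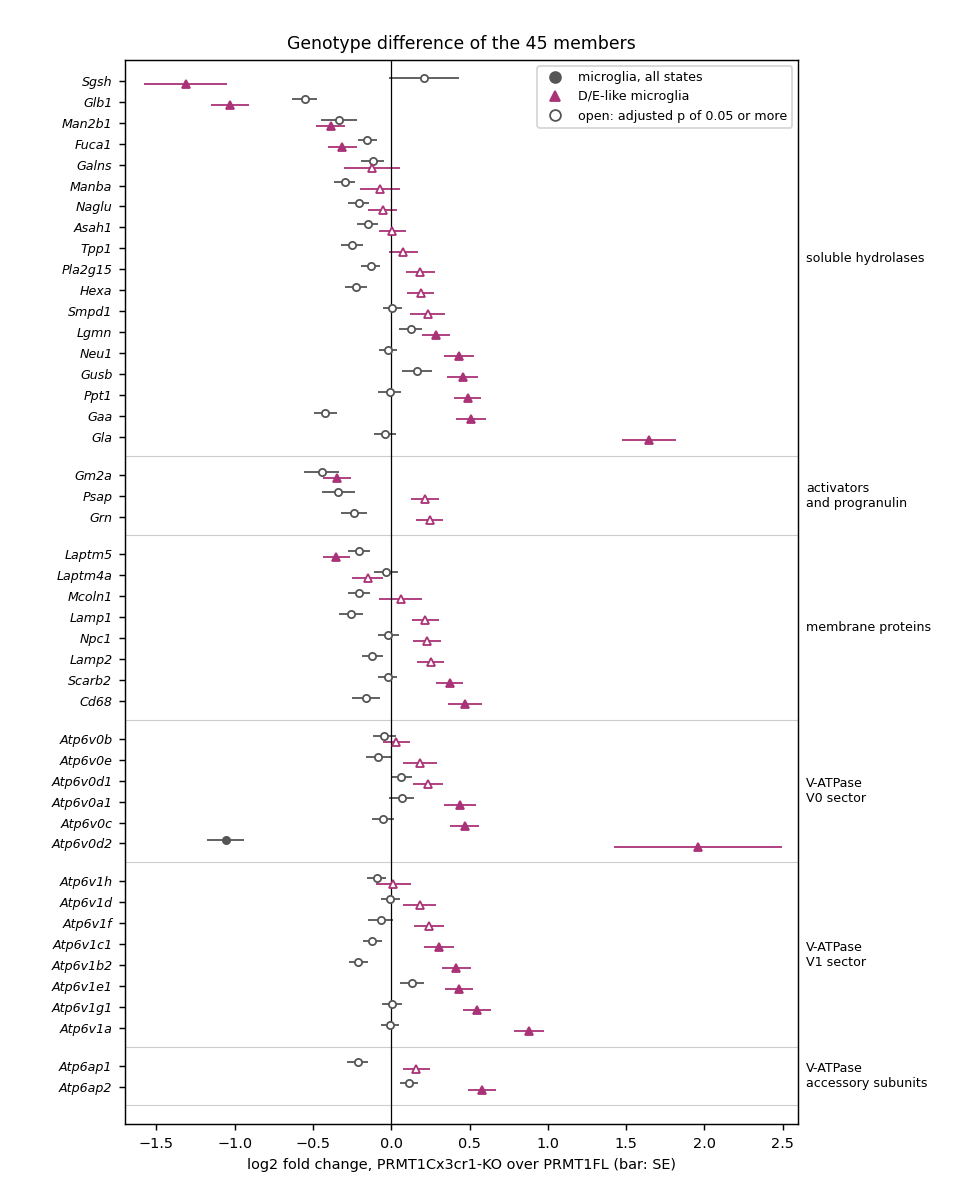
Log2 fold change (PRMT1Cx3cr1-KO over PRMT1FL, edgeR) of each of the 45 members by role, over all microglia (grey circles) and within D/E-like cells (purple triangles), with bars of 1 SE and filled symbols for an adjusted p under 0.05. Most circles lie left of 0 and most triangles right of it, Atp6v0d2 is the 1 filled circle (−1.06), and Gla (1.65) and Atp6v0d2 (1.96) are the triangles farthest right.

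The difference between D/E-like cells and all other microglia was tested itself, as an interaction of state and genotype with the mouse as a block. The genotype effect differed for 30 of 45 members, beside 2545 of 13692 genes (18.6%). It was higher in D/E-like cells for 28, beside 11.3% of all genes, and lower for 2, Sgsh and Glb1, beside 7.25%. The median difference was 0.33 over the members and 0.02 over all genes. With library totals the median of all genes moved to −0.12 and that of the members to 0.18. The interaction then passed for 26 of 45 members, 21 higher and 5 lower, beside 23.3% of all genes. By role, with TMM factors, the effect was higher for 9 of 18 hydrolases, 2 of 3 activators and progranulin and 5 of 8 membrane proteins. It was also higher for 4 of 6 V0 subunits, 6 of 8 V1 subunits and both accessory subunits.

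Differences on the log2 scale were 3.29 for Atp6v0d2, 1.74 for Gla, 0.997 for Gaa and 0.94 for Atp6v1a. They were 0.68 for Atp6v1b2, 0.65 for Cd68, 0.63 for Psap and 0.50 each for Grn and Lamp1. Sgsh had −1.93 and Glb1 −0.52. Within each mouse, the median log2 ratio of members in D/E-like cells to other microglia, on unscaled CPM, was −0.26 and −0.36 in the PRMT1FL mice and 0.10 and 0.15 in the PRMT1Cx3cr1-KO mice. In both PRMT1FL mice 27 members were below the other microglia and 16 above, and in both PRMT1Cx3cr1-KO mice 19 were below and 25 above. Gla was at 35.5 and 32.6 CPM in other microglia and 7.90 and 10.01 CPM in D/E-like cells of the PRMT1FL mice, and at 34.4 and 33.99 CPM and 25.3 and 28.3 CPM in the same cells of the PRMT1Cx3cr1-KO mice, so it was lower in D/E-like cells of every mouse but by less in the PRMT1Cx3cr1-KO mice. Psap was at 2503 and 2335 CPM in other microglia and 2575 and 2390.4 CPM in D/E-like cells of the PRMT1FL mice, and at 2074 and 1784 CPM and 2840.5 and 2687 CPM in those of the PRMT1Cx3cr1-KO mice, whose order thus turned between the cells. Of the 28 members with a higher effect, 8 were below in both PRMT1FL mice and above in both PRMT1Cx3cr1-KO mice. This count, and the counts and medians within each mouse above, were taken over the members alone. How all genes compare on these measures was not counted.

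**Figure D5:**
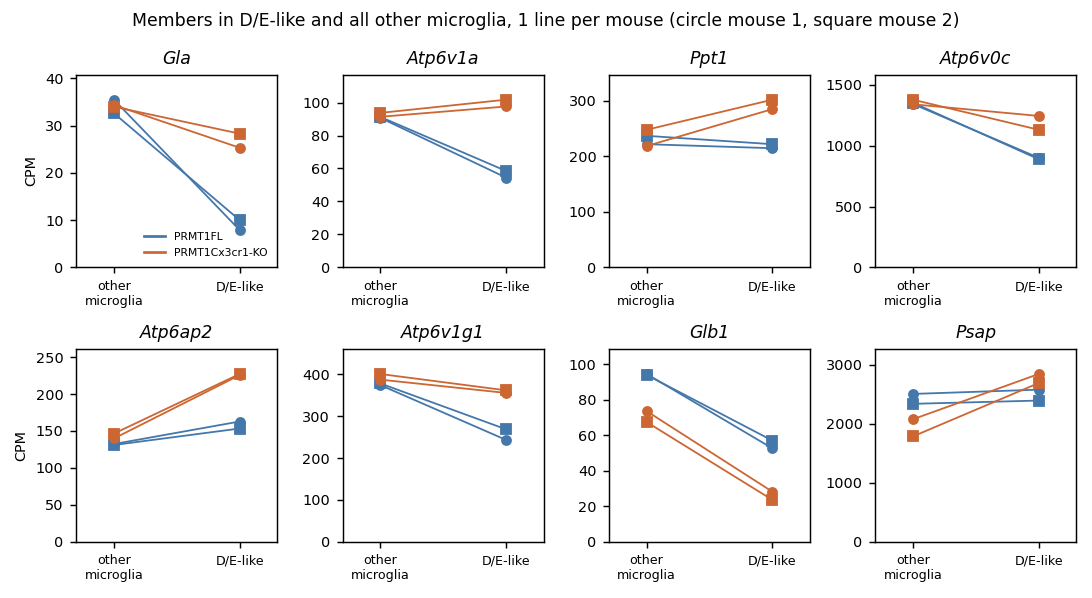
Unscaled CPM (linear axes from 0) of 8 members in all other microglia and in D/E-like cells, with 1 line per mouse (blue PRMT1FL, orange PRMT1Cx3cr1-KO). The 4 lines of Gla start close together and part in D/E-like cells, Glb1 is lower in PRMT1Cx3cr1-KO mice at both ends, and the lines of Psap cross.

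The number of calls in this state depended on single mice. Without PRMT1FL mouse 1 the members called within D/E-like cells numbered 9 (beside 9.87% of all genes) and without PRMT1FL mouse 2 they numbered 12 (beside 10.4%). Gla, Atp6v1a, Glb1, Ppt1, Atp6v0c, Atp6ap2 and Atp6v1g1 were called in all 12 other settings tried for this state, and 23 of 23 called members kept their direction in every setting in which they were tested.

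In the other 6 states tested, few members passed the adjusted threshold, and all that passed were lower in the PRMT1Cx3cr1-KO mice. The members' median log2 fold change was negative in each, from −0.16 to −0.04, beside −0.014 to 0.0003 over all genes. At an unadjusted edgeR p under 0.05 there were 19 of 45 members in the Ptgs2 cluster, beside 2299 of 12565 genes. There were 15 of 45 in the Cd5l cluster (2106 of 11926) and 16 of 44 in the Ube2c cluster (1686 of 10233). A1-like cells had 16 of 43 (953 of 9816) and interferon-responsive-like cells 9 of 43 (835 of 9064). The Lag3 cluster had 0 of 45 members called by edgeR (beside 0.751% of genes, 0.179% lower), with 4 at an unadjusted p under 0.05, beside 1260 of 11181 genes. In the Ptgs2 cluster 1 of 45 passed (0.836%, 0.247% lower), Atp6v0d2, from 4.80 and 4.31 CPM to 1.87 and 1.34 (−1.497 ± 0.201, adjusted p = 0.0343). The Cd5l cluster had 4 of 45 (2.72%, 1.06% lower): Gaa fell from 110.02 and 106 CPM to 78.7 and 69.3, Glb1 from 103.4 and 106 CPM to 82.4 and 69.7, Atp6v0d2 by 1.57 on the log2 scale and Pla2g15 by 0.37. The Ube2c cluster had 4 of 44 (2.96%, 1.37% lower), in which Glb1 fell from 94.9 and 91.2 CPM to 60.8 and 54.8 and Gm2a, Gaa and Tpp1 fell by 0.47, 0.42 and 0.35. In A1-like cells 2 of 43 passed (0.754%, 0.407% lower), Glb1 (−0.71) and Gaa (−0.62), and in interferon-responsive-like cells 1 of 43 (1.18%, 0.496% lower), Gaa (−0.58). Glb1 had a negative log2 fold change in all 7 states tested, from −1.03 to −0.31, and Gaa in 6 of 7, the exception being D/E-like cells. These counts rest on single mice: summed over the 6 states they were 12 (beside 1.54% of the genes tested, summed likewise), 2 without PRMT1FL mouse 1 (0.852%), 2 without PRMT1FL mouse 2 (0.694%) and 54 without PRMT1Cx3cr1-KO mouse 1 (7.85%).

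Outside D/E-like cells the genotype effect of a state differed from that of the other microglia for 4 pairs of member and state. In the Lag3 cluster 2 of 45 members passed (beside 0.823% of genes), Gm2a with a difference of 0.33 (edgeR adjusted p = 0.000269) and Grn with 0.22 (0.0194). In the Ptgs2 cluster 1 passed (1.9%), Atp6ap2 with −0.19 (0.0480), and in the Cd5l cluster 1 (1.4%), Pla2g15 with −0.29 (0.00478). In A1-like (1.32%), interferon-responsive-like (0.217%) and Ube2c (0.367%) cells 0 members passed with edgeR. At an unadjusted p under 0.05 there were 8, 2 and 1 of 45, beside 1208 of 13436, 694 of 13360 and 891 of 13092 genes.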

How the data were processed

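The authors deposited 1 filtered count matrix for each of 4 libraries, of raw UMI counts per gene and cell from Chromium 3′ libraries, made with Cell Ranger 3.1.0 on mm10 per the submitters' processing notes. The libraries held 8284 to 11554 barcodes and 76943248 to 99559644 UMIs, and pairs of libraries shared 31 to 46 barcodes. Cells with 200 to 6000 genes and up to 10% mitochondrial UMIs were kept (8170 to 11427 a library). Doublets were scored with Scrublet (in Scanpy 1.11.5), and since its automatic threshold marked almost no cell, the cells with the highest scores at the expected rate were marked (6.52% to 9.2%) and kept. Cells were clustered by Leiden on 2000 variable genes and 20 principal components (resolution 0.4) and named from marker lists. Left out were 2002 genes (members, pathway lists and genes past limits on p and fold change between genotypes over all cells kept). Cell types of the authors were not used, so names may differ from theirs.

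UMIs were summed per mouse and tested with the quasi-likelihood test of edgeR 4.0.16 (TMM factors, filter on low counts, Benjamini-Hochberg adjustment over all genes tested, called at an adjusted p under 0.05). A state was tested if every mouse had 20 or more cells in it. The interaction of state and genotype had the mouse as a block. Each replicate is 1 mouse, and groups came from the labels. Tests were also run on simulated counts with a fixed dispersion and no shared mouse effect, which does not show how they behave in these data. Full values were given for members with an adjusted p under 0.05, filled up to 12 by smallest p, the 2 most abundant of each role, the 8 with the largest ratio between states, and the 3 smallest p of each pathway list, of which 1 gene is not reported here. Members and lists were chosen with earlier results of these data known. Alternatives were other normalizations, filters, cell sets, resolutions, DESeq2 1.42.0, limma 3.58.1, a replicate block and leaving out each mouse. Intervals of counts were not needed, and precision was limited by 2 mice a group.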

Additional observations from a re-analysis of the deposited data

Results flagged for a closer look

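For 30 members the genotype effect (PRMT1Cx3cr1-KO against PRMT1FL) in D/E-like cells differed from that in other microglia by an edgeR interaction test adjusted over all genes, which also called 18.6% of all genes. Among the hydrolases the log2 difference was 1.74 for Gla, 0.997 for Gaa, 0.55 for Ppt1, 0.51 for Neu1, 0.49 for Pla2g15, 0.42 for Hexa, 0.34 for Tpp1, 0.28 for Gusb, 0.23 for Lgmn, −0.52 for Glb1 and −1.93 for Sgsh. Among activators and membrane proteins it was 0.65 for Cd68, 0.63 for Psap, 0.50 for Lamp1, 0.50 for Grn, 0.45 for Scarb2, 0.41 for Lamp2 and 0.32 for Npc1. Among the V-ATPase members it was 3.29 for Atp6v0d2, 0.94 for Atp6v1a, 0.68 for Atp6v1b2, 0.57 for Atp6v1g1, 0.54 for Atp6ap2, 0.54 for Atp6v0c, 0.44 for Atp6v1c1, 0.42 for Atp6v0a1, 0.41 for Atp6ap1, 0.33 for Atp6v1e1, 0.30 for Atp6v1f and 0.27 for Atp6v0e. Markers of several states differed between genotypes within D/E-like cells, and their part in these values was not tested.

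By the same test, the genotype effect in the Lag3 cluster differed from other microglia by 0.33 for Gm2a and 0.22 for Grn, that in the Ptgs2 cluster by −0.19 for Atp6ap2 and that in the Cd5l cluster by −0.29 for Pla2g15.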

How the results depend on the processing

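The 17 members lower at an unadjusted p under 0.05 over microglia were lower in every setting run, except Mcoln1 (0.0214 with cells thinned to 1000 UMIs). Atp6v0d2 was called in 15 of 18 settings, the reported one included, with log2 fold changes from −1.19 to −0.98. The genes called, 93 as reported, numbered 1576 without a filter on low counts, 749 over all cells within the limits, 765 over all barcodes, 442 with the replicate block, 734 with DESeq2, 40 with limma voom, 2694 with state as a term, 23 without D/E-like cells, and 5 to 2639 when a mouse was left out. The members called, 1 as reported, numbered 7, 3, 3, 3 and 6 in the first 5 of these, 20 with state as a term, 2 with clusters at higher resolution, and 0 (without either PRMT1FL mouse) to 14 (without PRMT1Cx3cr1-KO mouse 1). Of all genes tested, those called made up 0.672% as reported, 7.86% without a filter, 5.08% over all cells and 5.16% over all barcodes. The share was 3.19% with the replicate block, 5.3% with DESeq2, 19.5% with state as a term and 0.838% with clusters at higher resolution. All 45 members were tested in each of these settings. When a mouse was left out, the count of members moved with that of all genes. The most members were called in the fit that called the most genes, that without PRMT1Cx3cr1-KO mouse 1. None were called in the fits that called the fewest genes, those without either PRMT1FL mouse. Such fits leave 1 mouse in a group, so no conclusion is drawn from their counts. The median log2 fold change of the members was −0.1132 with RLE factors, −0.04412 with library totals, −0.1115 without a filter, −0.07686 over all cells, −0.07279 over all barcodes, −0.04537 with thinned cells, −0.1133 with DESeq2, −0.0642 with state as a term, −0.09966 without D/E-like cells, −0.1065 without B1-like cells, and −0.1253 to −0.09408 when a mouse was left out. The log2 ratio of the list's share was −0.062447 over all cells, −0.062647 over all barcodes and −0.046356 without Psap.

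Within D/E-like cells, 23 members as reported (24% of genes) became 11 in the shallower finer cluster (12%), 15 with cells thinned to 1000 UMIs (12.7%), which also leaves fewer genes tested, 30 (24 higher) with the replicate block (29.3%) and 9 to 24 when a mouse was left out (9.87% to 28.3%). Members called in the other 6 states ranged from 2 to 54 (0.694% to 7.85% of genes), and the differences of effect there, 4 as reported, from 1 to 12 (0.498% to 2.23%), when a mouse was left out. Replicate numbers came from the labels alone and did not show that the samples pair (correlation of deviations −0.0083 over all genes and 0.14 over genes above 5 on the log2 CPM scale, from 2 pairs).

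Of all 45 members over microglia the sign turned for 11 with library totals, 9 with thinned cells, 8 with state as a term, 7 over all cells, 7 over all barcodes and 3 to 7 when a mouse was left out; apart from Sgsh, Galns and Mcoln1 these had reported values of up to 0.0823 in size. Among the members with full values these were: with library totals Atp6v0b (0.0304), Atp6v0c (0.0215), Atp6v1f (0.0066) and Npc1 (0.0578); with state as a term Atp6v0c (0.0225), Atp6v1f (0.0055) and Sgsh (−0.0642); with thinned cells Galns (0.0583), Mcoln1 (0.0214), Npc1 (0.0428) and Sgsh (−0.309); over all cells or barcodes Npc1 (0.0221 and 0.0308); without doublets Atp6v1g1 (−0.0104). When a mouse was left out, Atp6v0b ran from −0.0964 to 0.0072, Atp6v1f from −0.147 to 0.0131, Npc1 from −0.0659 to 0.0377, Sgsh from −0.0321 to 0.418 and Atp6v1g1 from −0.0035 to 0.0139. In D/E-like cells 6 of 43 members turned with thinned cells, 5 and 4 of 44 in the deeper and shallower finer cluster, 4 with library totals and 1 to 2 when a mouse was left out. They included members of up to 0.23 in size: Smpd1, Tpp1 (−0.0072) and Atp6v0e (−0.0580) with thinned cells and Psap (−0.0325) in the deeper cluster. The cause of these changes was not tested.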
